A study of Homo sapiens with 6 samples.

Results

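The RNA levels of 10 genes that act on or within the mTOR complexes were followed in cells of a human osteosarcoma line with and without CNTNAP4. They were the sestrins SESN1, SESN2 and SESN3, the stress-induced inhibitor DDIT4, the tumor suppressors TSC1 and TSC2, and the complex components MTOR, RPTOR, RICTOR and DEPTOR. Members were found by exact gene symbol in the deposited table, and all 10 were listed among its 54308 genes. Each had a value in all 6 libraries, and each was among the 19306 genes tested.

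The kinase mTOR works in 2 complexes, mTORC1 with RPTOR and mTORC2 with RICTOR, and DEPTOR binds and inhibits mTOR in both. mTORC1 drives protein synthesis and growth when amino acids and growth factors are present, and it is restrained by the TSC1/TSC2 complex, which switches off the GTPase RHEB. Sestrins bind GATOR2 and so relay a shortage of amino acids to mTORC1, and DDIT4 (also called REDD1) acts through the TSC complex. SESN2 and DDIT4 are known as genes that are switched on by stress, and sestrins also by FOXO factors. Activity of the kinase is set by phosphorylation and binding, which RNA levels do not measure.

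The 143B cell line is a human osteosarcoma line. The VC group, genotype control, received a vector plasmid, and the CNTNAP4 KO group received a CNTNAP4 knockout plasmid, with 3 libraries each, numbered as replicates. The methods describe a plasmid vector with Cas9 and a guide RNA. The paper lists a guide sequence for the knockout plasmid and another for the negative control plasmid. All cells grew in the same serum-containing medium. The labels give 48 h of transfection, and the methods describe a longer incubation followed by sorting of single RFP-positive cells from both arms and expansion of clones, so the comparison is between clonal cells. Which clone each library came from is not given in the sources used here, so a difference between clones and the effect of the deletion cannot be told apart, and p-values measure the spread between these RNA samples only.

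The deposited values are log2 signals that the authors had brought to the same distribution in every library, with a median of 0.62, so the depth of each library is unknown. Their linear unit is not stated, so the 10 genes were compared between libraries, as single genes or as the ratio of 2 genes. The size of such a ratio in 1 group is not read as a difference in level between genes. Signals called low and shares of a marker sum are in these unstated units. A value for CNTNAP4 was listed in VC replicate 3 alone, at -7.18, so the deletion could not be checked in these signals. Of 9 markers of mesenchymal and osteoblast lineage, 7 had a value in every library, VIM among them at 10.33 to 10.93, while the osteoblast markers SP7 and BGLAP had one in 4 and 2 libraries. The log2 of the summed linear signal of this list was 10.44 to 10.61 in VC and 10.72 to 11.04 in KO, most of it VIM. COL1A2 was lower in every KO library, while VIM, COL1A1, SPARC, ALPL and SPP1 were higher and RUNX2 overlapped. For 5 epithelial markers the log2 sum was 9.17 to 9.32 in VC and 9.11 to 9.25 in KO, with CDH1 valued in 1 library. Nearly all of this was KRT18 and KRT8, and KRT18 and EPCAM were lower in KO while KRT8 was higher. For 4 leukocyte markers the log2 sum was 4.43 to 4.52 in VC and 5.71 to 6.46 in KO, nearly all of it CD68. For 3 endothelial markers it was -5.50 to -4.41 in VC and -4.84 to -4.11 in KO. The part of these markers in the results on the 10 genes was not tested.

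DDIT4 and SESN2 rose strongly in CNTNAP4 KO cells, and RICTOR rose moderately. DEPTOR, SESN3, SESN1, MTOR, TSC1 and TSC2 fell, and RPTOR had a lower mean that did not pass the test. A gene was called at an adjusted p under 0.05 in limma's moderated test, adjusted over all tested genes. Of the 10 members 3 were called higher, where 13.1% of all tested genes were called higher, and 6 were called lower, where 19.8% of all tested genes were. In either direction, 9 of the 10 were called, against 32.9% of all tested genes. The members were chosen with earlier results of these data known, so these shares are a description only. In bulk RNA, a change in some cells and a smaller one in all cells cannot be told apart. The 3 KO values lay entirely on 1 side of the 3 VC values in all 10 members, as they did in 59.3% of the 17698 genes with 6 values. The median log2 fold change of the 10 was -0.32, and that of all tested genes was -0.13. The count of lower members changed with the libraries used. It was 2 without VC replicate 1, 2 or 3 or without KO replicate 3, 3 without KO replicate 2 and 6 without KO replicate 1. The count of lower genes over all tested genes moved too, from 3828 to 646, 1396 and 569 without VC replicates 1, 2 and 3. It was 5729, 2659 and 1030 without KO replicates 1, 2 and 3. With each library centred on the median of its tested genes, 3 members were called higher and 4 lower. MTOR (adjusted p = 0.0526) and TSC2 (adjusted p = 0.0514) no longer passed in limma's test. This centring changed the split of all called genes from 2526 higher and 3828 lower to 3141 higher and 3066 lower.

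**Figure D1:**
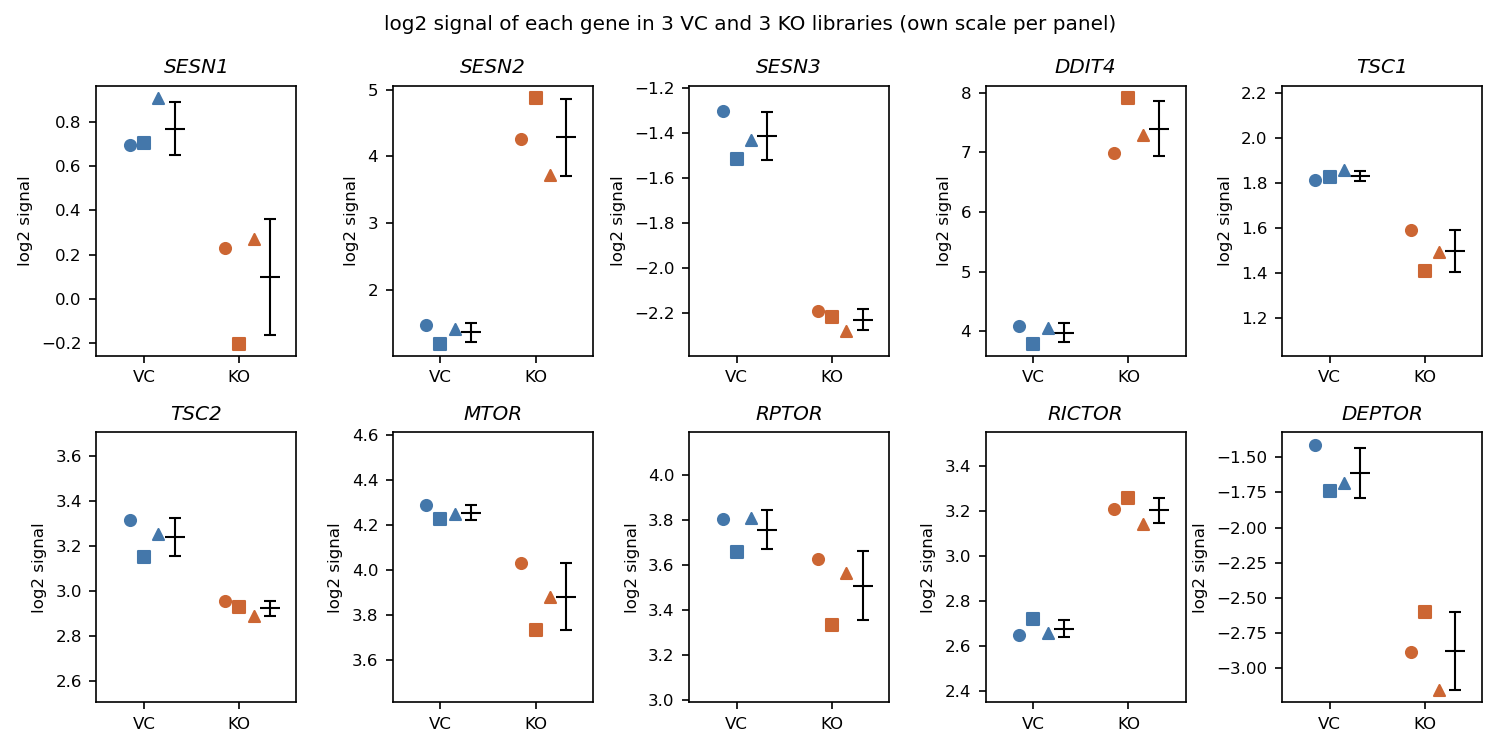
The log2 signal (y axis, own scale in each panel) of the 10 genes in the 3 VC (blue) and 3 KO (orange) libraries, with replicates 1, 2 and 3 as circles, squares and triangles and the mean and SD as black marks. KO points lie above all VC points for SESN2, DDIT4 and RICTOR and below all VC points for the other 7 genes.

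Of the sestrins, SESN2 rose and both relatives fell. SESN2, a sestrin that senses leucine, had log2 signals of 1.47, 1.19 and 1.42 in VC replicates 1, 2 and 3. In KO replicates 1, 2 and 3 it had 4.26, 4.87 and 3.72. The lowest KO library stood well above the highest VC library, and the KO libraries spread more widely than the VC libraries. The log2 fold change was 2.92 (95% confidence interval 2.17 to 3.68, adjusted p = 0.00834), a 7.59-fold increase that ranked 70 among the rises of all tested genes. SESN2 was called with each library left out in turn, with an adjusted p of at most 0.0415.

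SESN3, known as a FOXO-induced sestrin, had -1.30, -1.52 and -1.43 in the VC libraries. It had -2.19, -2.22 and -2.28 in the KO libraries, so the groups were separated by more than either spread. Its log2 fold change was -0.82 (95% confidence interval -1.03 to -0.61, adjusted p = 0.0082), a 1.76-fold decrease, and it too was called with each library left out. The signal of SESN3 is low, and adding 1 to the linear signal shrank the log2 fold change to -0.18.

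For SESN1, a stress-responsive sestrin, the VC libraries gave 0.70, 0.70 and 0.91 and the KO libraries 0.23, -0.20 and 0.27. KO replicate 2 was lowest, and the groups did not overlap. Its log2 fold change was -0.67 (95% confidence interval -1.06 to -0.28, adjusted p = 0.0297), a 1.59-fold decrease. Adding 1 to the linear signal gave -0.38. The call depended on the libraries used: it held without KO replicate 1 or 2, and the adjusted p lay between 0.0584 and 0.092 without each of the other libraries.

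DDIT4, the stress-induced gene that restrains mTORC1 through the TSC complex, changed most of the 10 genes. Its log2 signal was 4.08, 3.79 and 4.06 in the VC libraries, and 7.0, 7.91 and 7.29 in the KO libraries, replicates 1 to 3 in turn. KO replicate 2 was highest, as it was for SESN2. Its log2 fold change was 3.42 (95% confidence interval 2.79 to 4.06, adjusted p = 0.00571), a 10.7-fold increase that ranked 37 among the rises of all tested genes. No left-out library raised the adjusted p above 0.0348.

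The TSC genes, whose products form the complex through which DDIT4 acts, changed little in comparison. TSC1 had 1.81, 1.83 and 1.86 in VC and 1.59, 1.41 and 1.49 in KO, a log2 fold change of -0.33 (95% confidence interval -0.53 to -0.14, adjusted p = 0.0289). TSC2 had 3.31, 3.15 and 3.25 in VC and 2.95, 2.93 and 2.89 in KO, a log2 fold change of -0.32 (95% confidence interval -0.50 to -0.13, adjusted p = 0.0312). Both genes were lower in every KO library. Measured from the median of all tested genes the differences were -0.21 for TSC1 and -0.19 for TSC2, and each was called in 1 of the 6 fits that left out a library, that without KO replicate 1.

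Among the components of the complexes, RICTOR of mTORC2 rose while MTOR and DEPTOR fell. RICTOR, the scaffold of mTORC2, had 2.65, 2.72 and 2.66 in VC and 3.21, 3.26 and 3.14 in KO. Replicates were close together in both groups and the groups did not overlap. RICTOR had a log2 fold change of 0.53 (95% confidence interval 0.35 to 0.70, adjusted p = 0.0105), a 1.44-fold increase. It was called in 5 of the 6 fits that left out a library, the exception being that without VC replicate 3 (adjusted p = 0.0509).

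RICTOR shares 229 of its 13550 annotated exon bases (1.7%, GENCODE release 29) with OSMR on the opposite strand, and OSMR, a receptor for oncostatin M, also rose, by a log2 fold change of 0.78 (standard error, SE, 0.10, adjusted p = 0.0106). The library kit keeps strand, but whether the counting used it is not given in the sources used here, and the part of OSMR reads in the RICTOR value was not tested. TSC2 shares 4% of its exon bases with PKD1 and 2% with NTHL1, both on the opposite strand and neither called (log2 fold changes -0.28 and -0.22, adjusted p = 0.0874 and 0.161).

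MTOR, the kinase of both complexes, had 4.29, 4.23 and 4.25 in VC and 4.03, 3.74 and 3.88 in KO. All KO libraries were below all VC libraries, with KO replicate 2 lowest. MTOR differed by -0.37 on the log2 scale (95% confidence interval -0.62 to -0.13, adjusted p = 0.038), or -0.25 against the median of all tested genes. It was called in 1 of the 6 fits that left out a library, that without KO replicate 1.

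RPTOR, which recruits the substrates of mTORC1, had 3.8, 3.66 and 3.81 in VC and 3.63, 3.33 and 3.56 in KO. The groups did not overlap, but the nearest values were close. Its log2 fold change was -0.25 (95% confidence interval -0.52 to 0.018, adjusted p = 0.123), and RPTOR was not called with any library left out.

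DEPTOR, the inhibitor within both complexes, had -1.41, -1.74 and -1.68 in VC and -2.89, -2.60 and -3.16 in KO. The highest KO library was well below the lowest VC library. KO differed from VC by -1.27 on the log2 scale (95% confidence interval -1.71 to -0.83, adjusted p = 0.0113), a 2.42-fold decrease, and DEPTOR was called with each library left out. As for SESN3, the signal is low, and adding 1 to the linear signal shrank the log2 fold change to -0.22.

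DEPTOR lies on chromosome 8, where the median over the 635 other tested genes was -0.32 (log2 fold change), lower than that of all tested genes. The 20 tested genes nearest to DEPTOR had a median of -0.13, with 1 called higher and 5 called lower. The part of the chromosome in the DEPTOR value was not tested. For the other 9 members, the median of the remaining genes of the chromosome lay between -0.15 for TSC1 and -0.079 for SESN1.

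**Figure D2:**
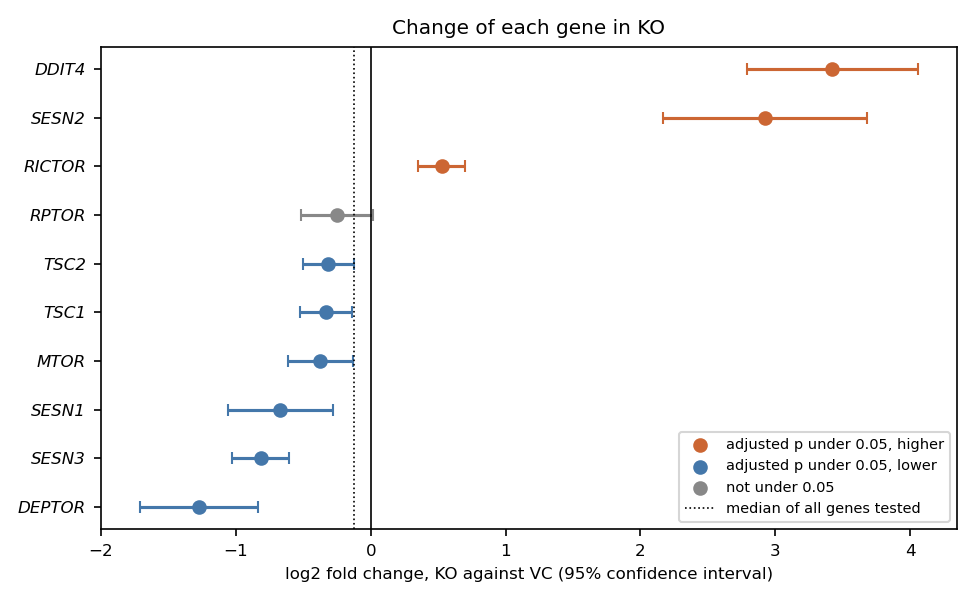
The log2 fold change of KO against VC (x axis) for each of the 10 genes, with its 95% confidence interval from limma; the solid line marks 0 and the dotted line the median of all genes tested. DDIT4 (3.42) and SESN2 (2.92) stand apart on the right, RICTOR (0.53) lies above 0, and the interval of RPTOR alone crosses 0.

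The sequence before the transcription start is shown for the 2 genes that rose most and for SESN3, the sestrin with the firmest fall, so that the risers can be set beside a member that fell. The 250 bases directly before the annotated start, taken from RefSeq on GRCh38.p14, are written 5′ to 3′ on the strand of the gene. The windows are chr10:72273674-72273923, plus strand for DDIT4, chr1:28259268-28259517, plus strand for SESN2 and chr11:95232476-95232725, minus strand for SESN3. Capitals mark a match to the core of the hypoxia response element, which is the only match in these 3 windows to the motifs searched.

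DDIT4: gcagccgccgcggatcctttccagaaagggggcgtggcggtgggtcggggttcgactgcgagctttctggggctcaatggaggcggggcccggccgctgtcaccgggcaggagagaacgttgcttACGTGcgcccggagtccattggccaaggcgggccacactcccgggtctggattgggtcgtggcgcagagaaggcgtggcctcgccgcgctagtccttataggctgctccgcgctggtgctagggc

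SESN2: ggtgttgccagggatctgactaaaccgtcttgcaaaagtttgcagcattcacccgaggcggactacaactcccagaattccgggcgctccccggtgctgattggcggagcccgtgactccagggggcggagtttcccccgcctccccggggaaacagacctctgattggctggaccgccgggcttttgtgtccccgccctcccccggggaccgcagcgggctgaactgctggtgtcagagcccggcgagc

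SESN3: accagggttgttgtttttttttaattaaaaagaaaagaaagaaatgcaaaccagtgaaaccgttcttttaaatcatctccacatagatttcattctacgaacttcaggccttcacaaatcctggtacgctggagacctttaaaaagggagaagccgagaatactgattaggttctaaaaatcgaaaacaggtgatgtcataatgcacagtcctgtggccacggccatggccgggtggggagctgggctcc

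Both strands of these windows were searched for the C/EBP-ATF response element TGATGNAA, the cyclic AMP response element TGACGTCA, the hypoxia core ACGTG, the FOXO element GTAAACA and the antioxidant response element TGACNNNGC. DDIT4 held ACGTG at bases -125 to -121 from the start, a motif found in 18.5% of 35116 promoter windows of the same length. None of the 5 motifs was found in the windows of SESN2 and SESN3. TGATGNAA was present in 3.14% of all windows, TGACGTCA in 1.65%, GTAAACA in 2.98% and TGACNNNGC in 10.9%. Windows could be matched by symbol for 9 of the 10 genes. Among the others, RICTOR held ACGTG, a window of SESN1 held TGACNNNGC, and a window of TSC2 held TGATGNAA, TGACNNNGC and ACGTG. In TSC2, ACGTG matched on both strands of a single palindromic site, CACGTG at bases -114 to -109. This site overlaps both of the other matches in that window. GC content was 68.8% for DDIT4 and 65.6% for SESN2, against 42.8% for SESN3 and a median of 58% over all windows.

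Ratios of a pair of members within the same library cancel any shift of the whole library, and 7 pairs were compared. A two-sided exact permutation test of 3 libraries against 3 cannot give a p below 0.1. The SESN2 to SESN3 log2 ratio was 2.71 to 2.85 in VC and 6.01 to 7.09 in KO, a difference of 3.74 (exact permutation p = 0.1, 0.14 after adjustment over the 7 pairs). The SESN2 to SESN1 log2 ratio rose by a similar 3.59, from 0.49 to 0.78 in VC to 3.45 to 5.07 in KO (exact permutation p = 0.1, adjusted 0.14). SESN2 thus shifted against SESN1 and SESN3 by more than the spread in either group. No pair can pass a threshold of 0.05 in this design. SESN1 against SESN3 had a log2 ratio of 2.0 to 2.34 in VC and 2.02 to 2.55 in KO (difference 0.15, exact permutation p = 0.4, adjusted 0.467).

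DDIT4 rose by more than SESN2 in each KO library: their log2 ratio was 2.60 to 2.64 in VC and 2.74 to 3.57 in KO (difference 0.50, exact permutation p = 0.1, adjusted 0.14). The difference was 0.27 without KO replicate 3. Adding 1 to the linear signal made it 0.82. The RPTOR to RICTOR log2 ratio, which sets the mTORC1 scaffold against that of mTORC2, was 0.93 to 1.15 in VC and 0.076 to 0.42 in KO (difference -0.77, exact permutation p = 0.1, adjusted 0.14). For TSC1 against TSC2 the log2 ratio ran from -1.50 to -1.32 in VC and from -1.52 to -1.36 in KO (difference -0.018, exact permutation p = 0.8, adjusted 0.8). The DEPTOR to MTOR log2 ratio fell by 0.90, from -5.97 to -5.70 in VC to -7.04 to -6.34 in KO (exact permutation p = 0.1, adjusted 0.14), but with 1 added to the linear signal the difference was 0.13, of the opposite sign.

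**Figure D3:**
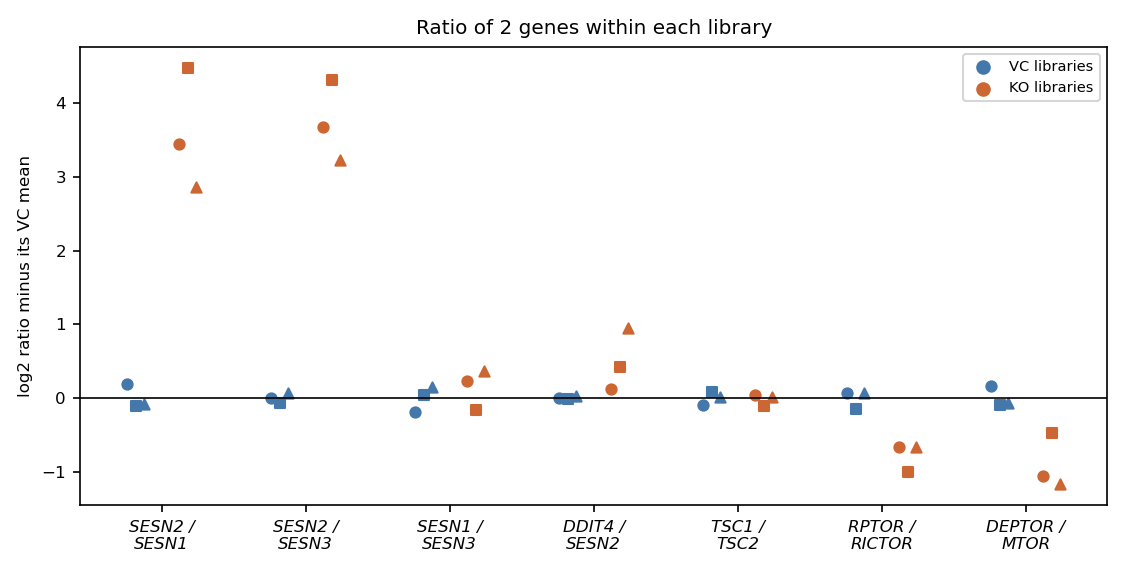
The log2 ratio of 2 genes in each library minus its VC mean (y axis) for the 7 pairs, with VC libraries in blue and KO libraries in orange and replicates 1, 2 and 3 as circles, squares and triangles. KO points lie far above VC points for SESN2 against SESN1 and SESN3, below them for RPTOR against RICTOR and DEPTOR against MTOR, and the groups overlap for TSC1 against TSC2 and SESN1 against SESN3.

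The 3 KO libraries did not move equally. KO replicate 2 was farthest from the VC mean in 7 of the 10 members, and it was so in 61.1% of the genes with 6 values. KO replicate 3 was farthest for SESN3, TSC2 and DEPTOR. Without KO replicate 2, 3 members were called higher and 3 lower, as were 1734 and 2659 of all genes.

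A list of 95 further genes sorted by role, chosen with earlier results of these data known, described the rest of the mTOR pathway. All 95 were listed and 92 were tested. Of these, 22 were called higher (23.9%) and 19 lower (20.7%), beside 13.1% and 19.8% of all tested genes, and their median log2 fold change was -0.048. The counts moved with single libraries, with 8 to 25 genes higher and 1 to 29 lower when each library was left out in turn; the fewest higher came without VC replicate 3, the fewest lower without VC replicate 1 or VC replicate 3, and the most of both without KO replicate 1. Without VC replicate 2 the counts were 11 and 2, without KO replicate 2 they were 17 and 12, and without KO replicate 3 they were 13 and 2. Over all genes, the fits that left out a library called 654 to 2940 higher and 569 to 5729 lower. With median-centred libraries, 27 pathway genes were higher and 11 lower.

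Among 8 partners of the mTOR complexes, 3 (37.5%) were called lower and 0 higher in limma's test, beside 19.8% and 13.1% of all tested genes. At an unadjusted p under 0.05 the counts were 4 and 0. TTI1 and TELO2, which help newly made mTOR fold, had log2 fold changes of -0.69 (SE 0.12, adjusted p = 0.0167) and -0.53 (SE 0.12, adjusted p = 0.0307), and PRR5L, a partner of mTORC2, had -0.55 (SE 0.15, adjusted p = 0.0416). Their calls held in 1 or 2 of the 6 fits that left out a library. None of TBC1D7, the third subunit of the TSC complex, the GTPases RHEB and RHEBL1, and DDIT4L, the paralog of DDIT4, was called by limma, and 0 had an unadjusted p under 0.05. The signal of DDIT4L was low, at -5.13 and -5.23 in VC with no value in replicate 2, and at -4.91, -3.93 and -4.39 in KO (log2 fold change 0.76, SE 0.31, adjusted p = 0.127). Without KO replicate 1 its adjusted p was 0.0289. Adding 1 to the linear signal reduced its change to 0.029. For RHEB, the direct activator of mTORC1, the log2 fold change was -0.083 with a 95% confidence interval of -0.25 to 0.082; it was singled out after its values were seen.

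Amino acid sensing contained a further riser. CASTOR1, the arginine sensor that binds GATOR2 as SESN2 does, had log2 signals of -0.67, -0.90 and -0.62 in VC and 0.69, 1.06 and 0.58 in KO. The groups were far apart, with a log2 fold change of 1.51 (SE 0.16, adjusted p = 0.00846), and CASTOR1 was called with each library left out. With 1 added to the linear signal the change was 0.76. SLC38A9, the lysosomal arginine sensor, had 0.61 (SE 0.18, adjusted p = 0.0495), and RRAGD, a Rag GTPase, had -0.63 (SE 0.13, adjusted p = 0.025). In all, 3 of 17 sensors, Rag and Ragulator genes were called higher (17.6%) and 1 lower (5.88%). Among the 12 GATOR1, GATOR2 and KICSTOR genes, 2 were called higher (16.7%) and 3 lower (25%). Over all tested genes, 13.1% were called higher and 19.8% lower. On the log2 scale DEPDC5 of GATOR1 differed by 0.35 (adjusted p = 0.0193), and KPTN and KICS2 (listed as C12orf66) of KICSTOR had -0.40 (adjusted p = 0.0238) and -0.71 (adjusted p = 0.031). The change of KICS2 was -0.26 with 1 added to the linear signal. Apart from CASTOR1, each gene named here was called in 1 or 2 of the 6 fits that left out a library.

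Upstream of the TSC complex stand the energy sensor AMPK and the insulin branch. The AMPK gamma subunit gene PRKAG2 fell by 0.89 on the log2 scale (SE 0.097, adjusted p = 0.00882), while PRKAB2 (0.51, adjusted p = 0.0332) and PRKAG1 (0.42, adjusted p = 0.0446) rose. Of 9 AMPK and LKB1 genes tested, 2 were called in each direction (22.2%). Among 12 PI3K and AKT genes, 5 were called lower (41.7%) and 1 higher (8.33%). Over all tested genes, 19.8% were called lower and 13.1% higher. IRS1 and IRS2, the adaptors of the insulin and IGF receptors, had log2 fold changes of -1.44 (SE 0.27, adjusted p = 0.0188) and -0.77 (SE 0.22, adjusted p = 0.0492). The gene called higher was PIK3CD, a catalytic PI3K subunit, with 0.94 (SE 0.13, adjusted p = 0.011). PRKAG2 and PIK3CD were called with each library left out, and the others named here in 1 or 2 of the 6 fits. With 1 added to the linear signal the change of IRS2 was -0.50.

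Of 17 genes for substrates of the complexes or for proteins further downstream, 7 were called higher (41.2%) and 5 lower (29.4%). Over all tested genes the shares were 13.1% and 19.8%. NDRG1, a stress-responsive gene whose protein is phosphorylated downstream of mTORC2, had log2 signals of 2.56, 2.21 and 2.56 in VC and 3.66, 5.04 and 4.86 in KO, a log2 fold change of 2.08 (SE 0.39, adjusted p = 0.0191), and was called in 2 of the 6 fits that left out a library. PDCD4, an inhibitor of translation that S6 kinase marks for degradation, had 3.94, 4.0 and 3.90 in VC and 4.91, 5.17 and 5.01 in KO, a log2 fold change of 1.09 (SE 0.092, adjusted p = 0.00665), and was called in all 6. The translation repressors EIF4EBP1 and EIF4EBP2 went in opposite directions, with log2 fold changes of 0.74 (SE 0.12) and -0.96 (SE 0.21, adjusted p = 0.0275); EIF4EBP1 was singled out after its values were seen. EIF4EBP2 was called in 2 of the 6 fits that left out a library, and EIF4EBP1 in 4.

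The transcription factors known to act on sestrins or DDIT4 were listed with earlier results of these data in view. Of 13 tested, 7 (53.8%) were called higher and 0 lower in limma's test, beside 13.1% and 19.8% of all tested genes. At an unadjusted p under 0.05 the counts were 8 and 1. Since the list was drawn up in this way, its counts are a description only. DDIT3, which encodes the stress factor CHOP, had 1.47, 1.57 and 1.36 in VC and 5.58, 6.34 and 5.52 in KO, a log2 fold change of 4.34 (SE 0.24, adjusted p = 0.00478). ATF3 and CEBPB had log2 fold changes of 2.16 (SE 0.29, adjusted p = 0.0107) and 1.71 (SE 0.19, adjusted p = 0.00912). These 3 genes were called with each library left out, and with 1 added to the linear signal the change of ATF3 was 1.31. ATF4, the central factor of the integrated stress response, was singled out after its values were seen. It had 5.37, 5.35 and 5.35 in VC and 6.46, 6.95 and 6.67 in KO (log2 fold change 1.34, SE 0.14).

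**Figure D4:**
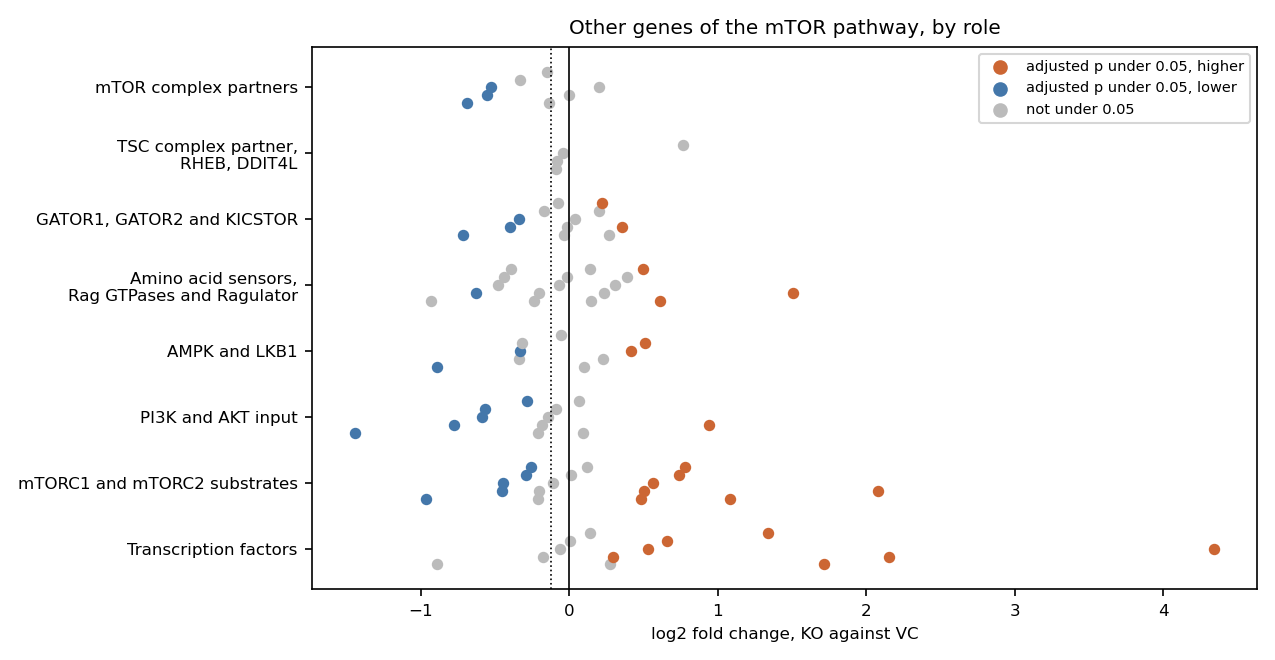
The log2 fold change of KO against VC (x axis) of 92 further pathway genes in 8 role groups (y axis), each point a gene, orange or blue where the adjusted p was under 0.05 and the gene was higher or lower, and grey otherwise; the solid line marks 0 and the dotted line the median of all genes tested. The transcription factors hold 7 higher and 0 lower genes, and the PI3K and AKT group 1 higher and 5 lower. Over all tested genes, 13.1% were called higher and 19.8% lower. The genes shown were chosen with earlier results of these data known.

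For the 3 members with the firmest changes, the genes with the most similar pattern over the 6 libraries were found by the root mean square distance between log2 signals centred on each gene's mean, among genes with 6 values in the upper 50% of mean signal. Closest to DDIT4 were HERPUD1 (distance 0.14), LINC02806 (0.17) and CTH (0.18), of 9652 genes compared. HERPUD1 takes part in the degradation of misfolded proteins of the endoplasmic reticulum, and CTH makes cysteine from cystathionine. The genes nearest to SESN2 were IRAK2 (distance 0.12), a kinase of interleukin-1 and Toll-like receptor signaling, BIRC3 (0.18), an inhibitor of apoptosis, and TNFRSF11B (0.20), which encodes osteoprotegerin. Among the genes nearest to SESN3 were CHCHD2 (distance 0.046) and ZFP41 (0.046). These distances are a description over 6 libraries that fall into 2 groups, and any gene with a difference of like size between the groups comes close.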

How the data were processed

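RNA of 6 libraries, 3 VC and 3 CNTNAP4 KO, was sequenced by the authors from a stranded mRNA kit. The submitters' processing notes name CASAVA, STAR, Partek and the build GRCh38.p13, and the methods name CLC Genomics and Partek Genomics Suite. The gene annotation is not given in the sources used here. The deposited table holds 1 log2 value per gene symbol and library, quantile-normalized by the authors, with empty cells for genes without a value.

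The log2 signals were used as deposited. The 19306 genes holding 2 or more values per group entered a linear model with empirical Bayes moderation in limma 3.58.1 under R 4.3.3. A two-sided p was corrected after Benjamini and Hochberg across every tested gene and called under 0.05. The fit was run on simulated data with planted changes and noise drawn independently for each gene. That run checks the code only, because shifts shared by the genes of a library were not simulated. Depth is unknown, so no counting error could be given.

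The members, the pathway list, the markers and the motifs were chosen with earlier results of these data known. Named pathway genes are, in each role group, the 3 called genes with the largest absolute log2 fold change, or where none was called the gene with the lowest adjusted p. Chromosomes were matched by symbol to RefSeq (GRCh38.p14) for 91.5% of tested genes. Alternatives covered the genes tested, scaling, pseudocounts of 1 and 0.1, moderation, a replicate block, single libraries left out and the threshold. Values of some named genes are not reported here.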

Additional observations from a re-analysis of the deposited data

How the results depend on the processing

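Each of the 10 members kept its direction in every alternative fit that gave it a value. DDIT4, SESN2, SESN3 and DEPTOR were called in all of these and RPTOR in none; SESN1, TSC1, TSC2, MTOR and RICTOR lost their call in at least 1. SESN3, DEPTOR and SESN1 fell outside the fit limited to the upper 50% by mean signal, which called 3 members lower. With single libraries left out, 2 to 3 members were called higher, 2 to 6 lower, 8 to 25 pathway genes higher, 1 to 29 lower, and 1223 to 8669 of all genes (654 to 2940 higher, 569 to 5729 lower). A 2-fold threshold left 1 member lower, 7 pathway genes higher, 1 lower and 1840 genes in all (792 higher, 1048 lower). Median-centred libraries gave 11 lower pathway genes, no variance moderation 12 and an unadjusted p 31; of all genes, 2442 were lower without moderation and 5796 at an unadjusted p. Over every tested gene, the median change was -0.13 as reported and moved to -0.038 with median-centred libraries and to -0.023 with 1 added. With 1 added to the linear signal, the change of the log2 ratio was -0.20 for SESN1 to SESN3, 0.029 for TSC1 to TSC2 and 0.13 for DEPTOR to MTOR, each of opposite sign to the reported value. Without single libraries TSC1 to TSC2 ranged from -0.065 to 0.030. The cause of these shifts was not tested.

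With a replicate block, 2 members were called higher, 2 lower, 7 pathway genes higher, 1 lower and 1533 genes in all (594 higher, 939 lower). The deviations of same-numbered VC and KO libraries correlated at 0.023, 0.0051 and -0.0074 for numbers 1, 2 and 3 over 17698 genes. Such low values gave no sign of pairing by number, but with 3 libraries a group they cannot decide whether samples were paired. VC replicate 1 and KO replicates 1 and 2 correlated best with their own number, and the other 3 libraries did not. The unknown depth and the 3 libraries a group limit every value.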
